A study of Rattus norvegicus with 22 samples.

Results

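The genes of antigen presentation were followed in rat tongue, in oral squamous cell carcinoma (OSCC) and in the phenotypically normal tongue beside it. Members were all genes whose name on the array begins with RT1-, the prefix of the rat major histocompatibility complex (MHC), together with 12 named genes of antigen processing. Of those 12 names 11 were found, since none of the probes carried the name Nlrc5, and the group came to 53 of the 26583 gene names on the array. The array's gene descriptions placed 33 members in MHC class I and 9 in class II, and the other 11 were the processing genes.

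The study profiled 11 male F344 rats of about 33 weeks of age, each giving 1 OSCC and 1 normal sample, so that 22 arrays formed 11 pairs. Rats drank 4-nitroquinoline 1-oxide (4-NQO, a DNA-damaging carcinogen) at 20 ppm for 10 weeks, and tissues were taken 23 to 26 weeks after exposure began. The treatment label of the normal samples reads none and every title carries the word untreated, but the sampling protocol takes both tissues of a pair from the same carcinogen-exposed rat. The normal samples were therefore not tongue of unexposed rats, and both tissues were bulk pieces holding several cell types.

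MHC class I molecules carry peptides from inside the cell to CD8 T cells and consist of a heavy chain and the light chain beta-2 microglobulin. Their peptides are cut by the proteasome, pumped into the endoplasmic reticulum by the transporter Tap1/Tap2 and loaded there with the help of tapasin. MHC class II molecules carry peptides of internalized proteins to CD4 T cells, are made chiefly by dendritic cells, macrophages and B cells, and need the invariant chain Cd74, cathepsins and the DM exchange factor. Interferon gamma is the best known inducer of both sets.

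Levels are given as log2 of the signal relative to the 75th percentile of the same array, so that 0 is the level of that percentile. Each gene was read from its brightest probe, and levels of different probes are not compared, since probes differ in brightness. A member was taken as measured when its probe was well above background on at least 6 of the 11 arrays of either tissue. By that rule 41 members were measured, 25 of class I, 6 of class II and 10 of processing. The other 12 were not, and 4 of these were well above background on no array.

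Most of the measured genes were moderately higher in OSCC. With limma's adjusted p under 0.05 and a change of at least 2-fold, 3 members were higher and 0 were lower, against 6.86% and 6.97% of all 30367 probes. The share of members higher past this double limit was near the background, and the share lower was below it. With the adjusted p alone, 28 members were higher, against 16.2% of all probes. At this limit 2 were lower, against 27.9% of all probes, and 1 of those 2, RT1-M10-1, was above background on no array. The median difference was 0.54 over all 53 members and -0.24 over all probes. Over the 41 measured members it was 0.64, and over probes well above background on all 22 arrays it was -0.08. Over all probes 2083 were called higher and 2118 lower at 2-fold, and under scaling to the array median 1541 and 3154, where 20 members were higher and 4 lower by the adjusted p. None of the 53 members had all its OSCC values above all its normal values, which 0.668% of probes did.

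Several facts of the series bear on every difference below. Normal and OSCC samples never shared a slide, and in 9 of the 11 pairs the OSCC array was scanned on a later day than its normal partner. When scan day entered the model, 0 members passed the adjusted p in either direction, and of all probes 0 were called higher and 3 lower at 2-fold. Scan day and tissue can hardly be told apart with 2 pairs scanned on 1 day. In those 2 pairs (rats 4 and 9) 26 of the 28 higher members were higher in both, the others being RT1-S2 and RT1-S3. Both pairs were part of the fit that selected the 28, so this count is not a separate test. The share of all probes higher in both pairs was not computed. Levels of some cell type markers also differed between the tissues. The leukocyte gene Ptprc was 1.5 ± 0.35 (SE, n = 11 pairs) higher on the log2 scale, 6 of 8 T-cell markers and 4 of 5 macrophage markers were called higher, and 3 of 4 skeletal muscle genes were called lower. Of the dendritic cell markers 1 of 5 was called higher, and of the natural killer cell and squamous epithelial markers 0 of 4 each were called. In bulk samples fewer cells of a type and less RNA per cell cannot be told apart. The pairs of rats 21, 22 and 24 stood apart from the others across all probes, their differences correlating at 0.47, 0.21 and 0.26 with the mean of the remaining pairs, and rat 17 also stood at 0.47. Without rats 21, 22 and 24, 29 members were higher and 6 lower by the adjusted p, and 8 were higher by at least 2-fold.

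**Figure D1:**
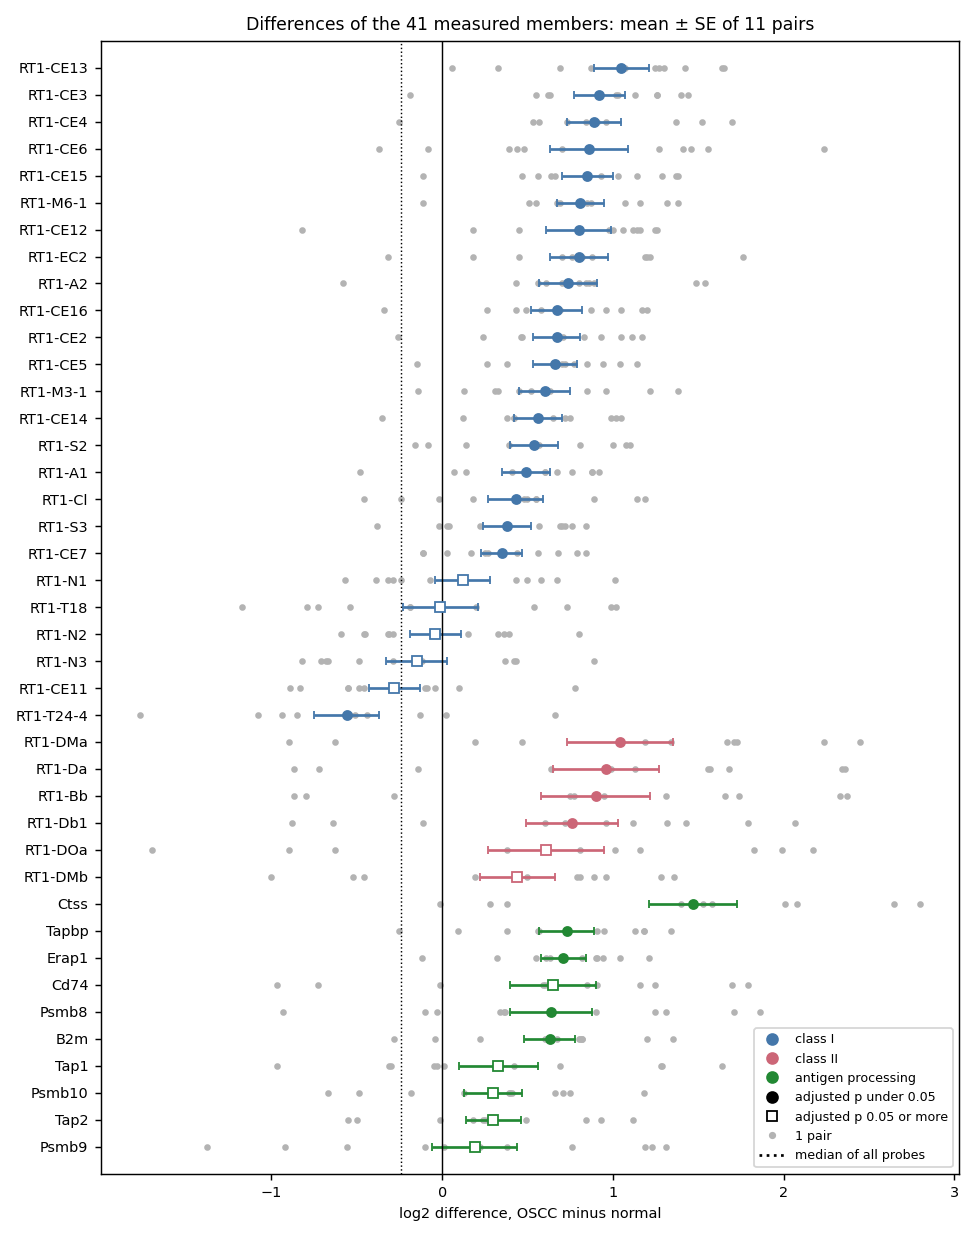
Difference between OSCC and normal tongue for the 41 measured members, on the log2 scale, with the mean ± SE of 11 pairs in colour and each pair in grey. Filled circles passed the adjusted p, open squares did not, and the dotted line is the median of all probes at -0.24. Over probes well above background on every array that median was -0.08. The class I genes lie mostly between 0.35 and 1.05, and the class II genes have wider spreads between pairs.

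Among the class I heavy chains, 19 of the 33 members were higher in OSCC by the adjusted p, and all 19 were measured. RT1-CE13 (rn4 chromosome 20_random, 90224 to 90283) was the only one past 2-fold. Its log2 level in normal tongue ran from 0.61 through a median of 1.45 to 2.08, and in OSCC from 1.62 through 2.41 to 2.75. The tissues overlapped, but OSCC was higher in 11 of 11 pairs, by 1.05 ± 0.16 (SE, n = 11, adjusted p = 0.000632), and the smallest pair difference was 0.06 in rat 22. Under the alternatives tried its difference stayed between 0.85 and 1.15, and it failed the adjusted p only with scan day in the model (adjusted p = 0.0896).

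RT1-A1 and RT1-A2, from the region of the classical class I heavy chains, differed by less. RT1-A1 lay between 4.41 and 5.18 in normal tongue with a median of 4.78, and between 4.70 and 5.70 in OSCC with a median of 5.33. The ranges overlapped, and 10 of 11 pairs were higher in OSCC, by 0.49 ± 0.14 (SE, adjusted p = 0.0165). The exception was rat 22, at -0.48. RT1-A1 lost its call under scaling to the array median (0.29, adjusted p = 0.117) and under normexp (0.38, adjusted p = 0.207). RT1-A2 was higher by 0.74 ± 0.17 (adjusted p = 0.00546), with the same exception at -0.58.

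The CE genes were the largest set of class I names. Of 13 CE genes 12 were measured, and 11 of those were higher by the adjusted p. The weakest was RT1-CE7, higher by 0.35 ± 0.12 (adjusted p = 0.0365), and after RT1-CE13 the strongest was RT1-CE3, higher by 0.92 ± 0.15 (adjusted p = 0.000941). RT1-CE4, RT1-CE15, RT1-CE12, RT1-CE16, RT1-CE2, RT1-CE5 and RT1-CE14 lay between, from 0.56 to 0.89. RT1-CE6 was higher by 0.86 ± 0.23, but was above background on 3 normal and 9 OSCC arrays. RT1-CE10 was not measured.

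RT1-CE11 was the exception among the measured CE genes. Its log2 level was -0.41 to 0.23 in normal tongue with a median of 0.04, and -0.90 to 0.42 in OSCC with a median of -0.37. The tissues overlapped broadly, 2 of 11 pairs were higher in OSCC, and the difference of -0.28 ± 0.15 (SE) did not pass the test (adjusted p = 0.134). RT1-CE11 passed as lower under scaling to the array median (-0.49, adjusted p = 0.0144), without rat 24 (-0.39, adjusted p = 0.0241) and without rats 21, 22 and 24 (-0.50, adjusted p = 0.00702). Its probe is nearly the same in sequence as 1 of the 2 probes for RT1-A1. Both are shown 5′ to 3′ as the array lists them, at rn4 chromosome 20_random, 133569 to 133628, and chromosome 20, 5059134 to 5059193. Capitals mark the 7 of 60 bases that differ.
RT1-CE11: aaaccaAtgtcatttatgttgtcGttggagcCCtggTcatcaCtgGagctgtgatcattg
RT1-A1: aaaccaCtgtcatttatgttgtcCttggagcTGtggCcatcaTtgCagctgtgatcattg
This second RT1-A1 probe was higher in OSCC by 0.52 ± 0.13 (adjusted p = 0.0107), close to the 0.49 of the brightest one. With 53 bases in common, the pair of probes thus gave differences on either side of 0. Their difference itself was not tested.

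The other class I groups split. RT1-S2 and RT1-S3 were higher by 0.54 ± 0.14 and 0.38 ± 0.14 (adjusted p = 0.0114 and 0.0403), and RT1-S2 lost its call under scaling to the array median (0.34, adjusted p = 0.0813) and under normexp (0.49, adjusted p = 0.0682). RT1-EC2 was higher by 0.80 ± 0.17 and RT1-Cl by 0.43 ± 0.16 (adjusted p = 0.00357 and 0.0479). Of the M genes, 2 of 8 were measured, and both were higher. RT1-M3-1, whose mouse counterpart presents formylated peptides, was higher by 0.60 ± 0.15 (adjusted p = 0.00759), and RT1-M6-1 by 0.81 ± 0.14 (adjusted p = 0.00113). The calls of RT1-S3, RT1-Cl and RT1-CE7 were each lost when any of at least 8 rats was left out. The M genes not measured were RT1-M1-2, RT1-M1-4, RT1-M2, RT1-M4, RT1-M5 and RT1-M10-1.

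None of the N and T genes was higher by the adjusted p, and their difference from the other class I genes was not tested. RT1-N1, RT1-N2 and RT1-N3 differed by 0.12 ± 0.16, -0.04 ± 0.15 and -0.15 ± 0.18, and none passed the test (adjusted p = 0.557, 0.851 and 0.486). RT1-T18 stood at -0.01 ± 0.22 (adjusted p = 0.967), with pairs between -1.17 and 1.02. RT1-T24-4 was the only measured member that was lower by the adjusted p. Its level ran from -2.62 through -2.11 to -1.40 in normal tongue and from -3.56 through -2.58 to -1.52 in OSCC. The ranges overlapped, 2 of 11 pairs were higher in OSCC, and the mean fell by 0.56 ± 0.19 (SE, adjusted p = 0.0316). The call was lost when rat 11, 13, 16, 25 or 26 was left out (adjusted p from 0.054 to 0.0653) and under 4 other settings, and over all settings the difference lay between -0.76 and -0.05. RT1-T24-2 was not measured.

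**Figure D2:**
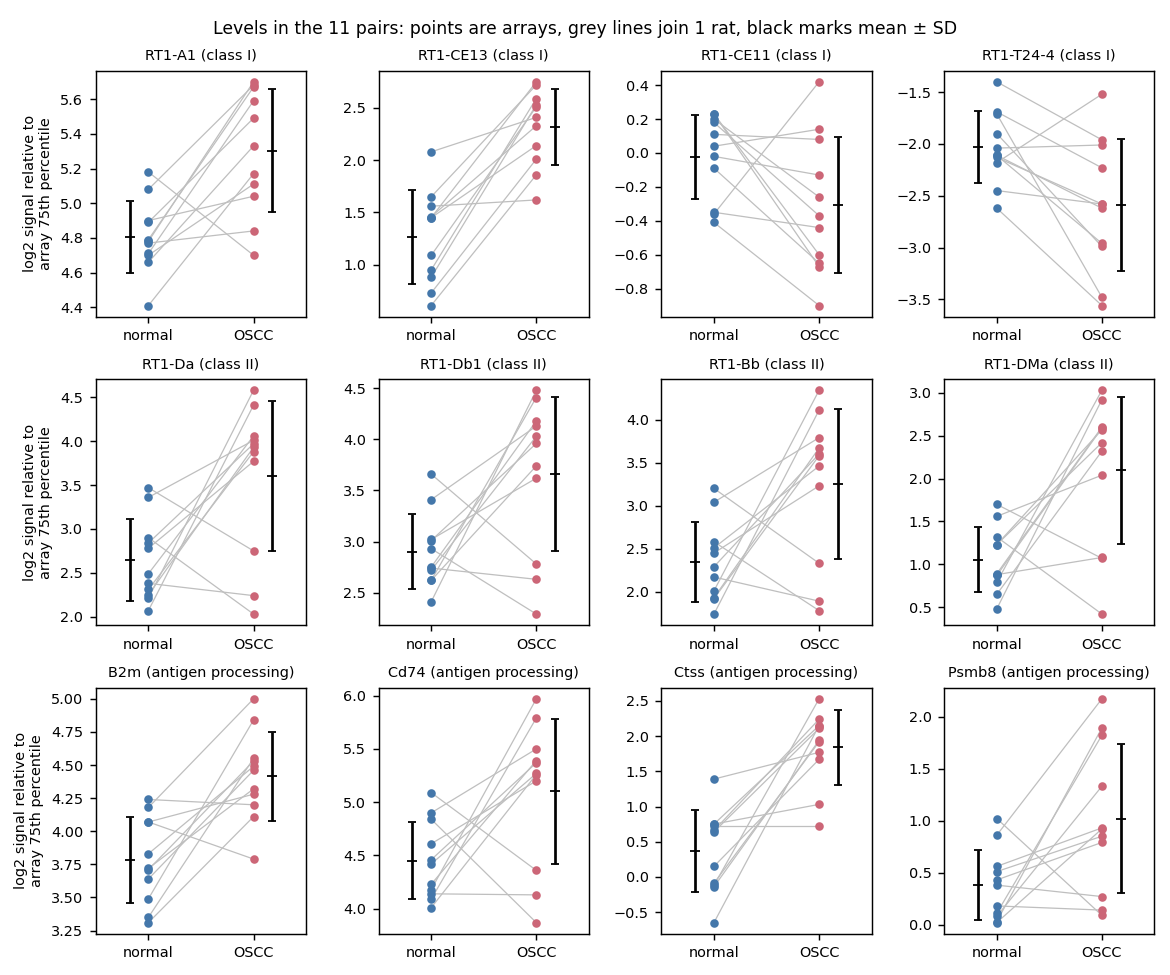
Log2 level of 12 members in each array, relative to the array's 75th percentile, with grey lines joining the tissues of 1 rat and black marks at the mean ± SD of 11 arrays. RT1-CE13 is higher in OSCC in every pair, RT1-CE11 in 2 of 11, and in the class II panels 2 or 3 rats go against the rest.

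How far single RT1 genes can be told apart by these probes is limited. For the probes of RT1-CE12, RT1-CE4, RT1-CE5, RT1-M6-1 and RT1-N1, transcripts listed by the array carry another gene name in RefSeq. Whether such a name is a second gene or a renaming of the same one was not tested. Of the 31 measured RT1 genes, 7 had a brightest probe matching another's at 85% or more of at least 40 overlapping bases. RT1-CE5 and RT1-S2 matched at 51 of 58 bases, and so did RT1-N1 and RT1-N3. RT1-Cl matched RT1-CE14 at 48 of 55 and RT1-CE11 at 40 of 45. Counts of class I genes are therefore counts of array names. The brightest probes for RT1-S2, RT1-CE5 and RT1-M6-1 are shown because they share an unbroken run of 26 bases, in capitals. They lie on rn4 chromosome 20 at 2795080 to 2795139, 3510942 to 3511001 and 1660276 to 1660335.
RT1-S2: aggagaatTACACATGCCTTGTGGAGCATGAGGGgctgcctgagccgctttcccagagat
RT1-CE5: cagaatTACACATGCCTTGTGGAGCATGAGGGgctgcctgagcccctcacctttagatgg
RT1-M6-1: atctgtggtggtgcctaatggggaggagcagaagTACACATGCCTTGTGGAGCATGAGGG
All 3 were well above background on all 22 arrays and higher in OSCC. The second probe for RT1-CE5 and that for RT1-M6-1 were above background on none of the 22, with differences of -0.63 ± 0.22 and -0.46 ± 0.27. For RT1-T18, the other probes were above background on 0 and 1 of the arrays. The 2 probes for RT1-EC2 lie apart on chromosome 20, 1 beginning at 3412477 and 1 at 2818002, next to the RT1-S3 probe that ends at 2818001. The first was higher by 0.80 ± 0.17, while the second was at 0.22 ± 0.14 (adjusted p = 0.209). Both probes of RT1-A1, of RT1-CE2, of RT1-S2 and of RT1-Bb passed the adjusted p in the same direction. The second probe for RT1-Db1 gave 0.82 ± 0.32 and just missed it (adjusted p = 0.0527). When all probes of a gene were averaged, RT1-CE5 and RT1-M6-1 lost their calls (adjusted p = 0.934 and 0.341). The rn4 assembly comes from the Brown Norway strain, whereas the rats were F344, and RT1 class I genes vary between strains. Which F344 transcripts each probe reports was not tested.

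The class II genes were higher in OSCC on average, with more spread between rats. Of the 9 members, 4 were higher by the adjusted p, namely RT1-DMa, RT1-Da, RT1-Bb and RT1-Db1. RT1-Da and RT1-Db1 are the chains of the rat counterpart of HLA-DR, RT1-Bb is the beta chain of the counterpart of HLA-DQ, and RT1-DMa belongs to the factor that exchanges the invariant chain peptide for antigen. Over the 6 measured genes the median difference was 0.83, compared with 0.60 over the 25 measured class I genes, and the median SE was 0.31 compared with 0.15.

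RT1-DMa (rn4 chromosome 20, 4844372 to 4844431) was the only class II gene past 2-fold. It ran from 0.48 through 0.89 to 1.70 in normal tongue and from 0.42 through 2.42 to 3.03 in OSCC. OSCC held both the lowest and the highest value, and 9 of 11 pairs were higher, by 1.04 ± 0.31 (SE, adjusted p = 0.0204). Its probe is shown because it carries the 1 class II call of that size.
RT1-DMa: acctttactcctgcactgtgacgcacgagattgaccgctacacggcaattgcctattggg
Its partner RT1-DMb was higher by 0.44 ± 0.22 and did not pass (adjusted p = 0.124).

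RT1-Da lay between 2.07 and 3.47 in normal tongue with a median of 2.49, and between 2.03 and 4.58 in OSCC with a median of 3.93. It was higher in 8 of 11 pairs, by 0.96 ± 0.31 (SE, adjusted p = 0.0287), and its pair differences ran from -0.87 in rat 24 to 2.36 in rat 25. RT1-Db1 was higher by 0.76 ± 0.27 and RT1-Bb by 0.90 ± 0.32 (adjusted p = 0.0379 and 0.0373), each in 8 of 11 pairs. RT1-DOa, a chain of the DO modulator of DM, was higher by 0.61 ± 0.34 without passing (adjusted p = 0.156), and its partner RT1-DOb was not measured. RT1-Ha was above background on no array.

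RT1-Ba, the alpha chain that pairs with RT1-Bb, was above background on 0 normal and 1 OSCC arrays, whereas both RT1-Bb probes were above background on all 22. Only 1 probe of the array carries the name RT1-Ba, at rn4 chromosome 20, 4700973 to 4701032, and it is shown because no level of this chain could be given.
RT1-Ba: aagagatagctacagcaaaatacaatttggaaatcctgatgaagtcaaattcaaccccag

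The class II calls were fragile to the choice of rats. Leaving out rat 4, 9, 11, 13, 25 or 26 left 1 of the 4 past the adjusted p, and leaving out rat 16 left 2. Without rats 21, 22 and 24, 5 class II members passed, 4 of them at 2-fold or more. Under normexp and in the 9 pairs scanned on 2 days 0 passed.

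The classes parted in single pairs. In 8 rats all 6 measured class II genes were higher in OSCC. In rats 22 and 24 none of the 6 was, with median differences of -0.68 and -0.88, and in rat 17 only 1 was, with a median of -0.21. Class I did not follow in rats 17 and 24, where 16 and 21 of the 25 measured genes were higher, with a median of 0.66 in each. In rat 22 the class I median was -0.24 and 2 of 25 genes were higher. At the other end, rats 11 and 25 had class II medians of 2.26 and 2.12 and class I medians of 1.05 in each. Ptprc differed by 3.14 and 3.20 in rats 11 and 25, and by -0.15, -0.66 and 0.25 in rats 17, 22 and 24. In rats 21 and 24 the muscle myosin Myh4 differed by 0.42 and 0.04, while in the other 9 rats it was lower in OSCC. In rat 24 the basal keratin Krt5 differed by -3.53. The part of tissue composition in these pair differences was not tested.

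**Figure D3:**
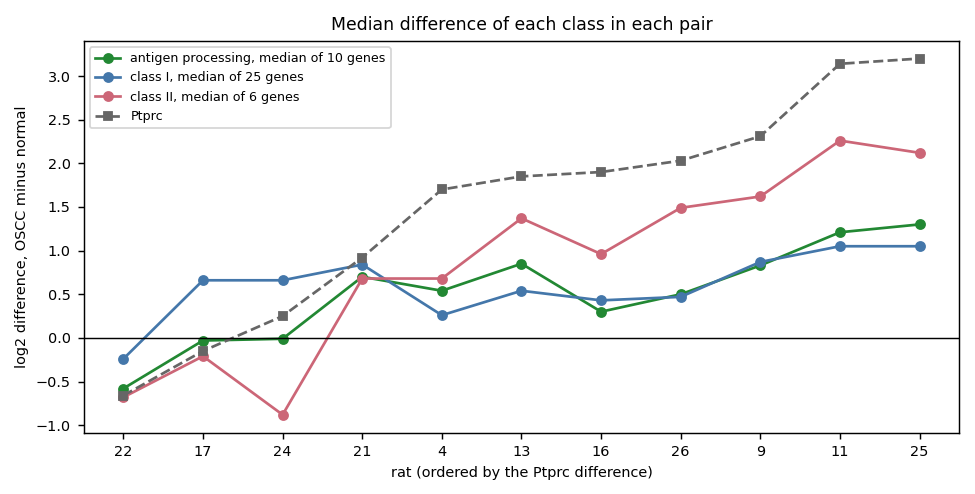
Median log2 difference between OSCC and normal tongue in each of the 11 rats, over 25 class I, 6 class II and 10 processing genes, with the difference of the leukocyte gene Ptprc. Rats are ordered by Ptprc; class II runs from -0.88 in rat 24 to 2.26 in rat 11, and class I from -0.24 in rat 22 to 1.05 in rats 11 and 25.

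Of the 11 processing genes, 5 were higher by the adjusted p, namely Ctss, Tapbp, Erap1, Psmb8 and B2m. Ctss, the cathepsin that removes the invariant chain from class II molecules, had the largest difference of all measured members. Its level ran from -0.65 through 0.64 to 1.39 in normal tongue and from 0.72 through 1.94 to 2.53 in OSCC. The ranges overlapped, and 10 of 11 pairs were higher, by 1.47 ± 0.26 (SE, adjusted p = 0.00139), or 2.77-fold.

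B2m, the light chain of class I molecules, lay between 3.31 and 4.24 in normal tongue with a median of 3.72, and between 3.79 and 5.0 in OSCC with a median of 4.46. It was higher in 9 of 11 pairs, by 0.63 ± 0.15 (SE, adjusted p = 0.00745), a call lost under normexp (adjusted p = 0.11). The class II invariant chain Cd74 had a difference of like size, 0.65 ± 0.25, with more spread, and did not pass (adjusted p = 0.0534). It lay between 4.01 and 5.09 in normal tongue with a median of 4.42, and between 3.87 and 5.97 in OSCC with a median of 5.27, and 8 of 11 pairs were higher. Cd74 lay at the threshold. It passed without the rat block (0.65, adjusted p = 0.0248), under quantile normalization (0.93, adjusted p = 0.0307), under the detected-probe percentile, the dim-probe filter and the slide as a random block (adjusted p = 0.0432, 0.0429 and 0.0484), without rat 17, 22 or 24 (adjusted p = 0.0461, 0.0234 and 0.0147) and without rats 21, 22 and 24 (1.03, adjusted p = 0.00222). It did not pass under the array median (0.45, adjusted p = 0.144) or normexp (0.60, adjusted p = 0.35).

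Of the peptide-loading genes, Tapbp, which encodes tapasin, was higher by 0.73 ± 0.16 and the trimming peptidase Erap1 by 0.71 ± 0.13 (adjusted p = 0.00376 and 0.00147), each in 10 of 11 pairs. The transporter genes Tap1 and Tap2 were higher by 0.33 ± 0.23 and 0.30 ± 0.16 and did not pass (adjusted p = 0.242 and 0.147). The difference between these pairs of genes was not tested. Under normexp Tapbp lost its call (adjusted p = 0.0549). Tap1 lay between -0.76 and 0.24 in normal tongue with a median of -0.34, and between -1.07 and 1.34 in OSCC with a median of -0.11, so that OSCC extended past normal tongue at both ends. Ciita, the class II transactivator, was above background on 0 normal and 2 OSCC arrays, so that no change of it could be read.

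The immunoproteasome replaces the catalytic subunits Psmb5, Psmb6 and Psmb7 with Psmb8, Psmb9 and Psmb10. Psmb8 was higher in OSCC by 0.64 ± 0.24 (adjusted p = 0.0475). The call was lost when any rat other than 17, 22 or 24 was left out (adjusted p from 0.0648 to 0.104). It was also lost under quantile normalization, the array median, normexp, the authors' value table and the slide as a random block. The pairs scanned on 2 days and the methods' t-test after Benjamini-Hochberg lost it too. Psmb9 at 0.19 ± 0.25 and Psmb10 at 0.30 ± 0.17 did not pass (adjusted p = 0.536 and 0.16). The constitutive Psmb5, Psmb6 and Psmb7 differed by -0.25 ± 0.12, -0.26 ± 0.10 and -0.33 ± 0.17, without passing. The difference between the changes of 2 genes was tested within pairs by an exact two-sided sign-flip permutation test, with Benjamini-Hochberg adjustment over 6 such comparisons. Psmb8 rose relative to Psmb5 by 0.89 ± 0.31 (SE), in 10 of 11 pairs (exact p = 0.0186, adjusted p = 0.0371). Psmb10 against Psmb7 gave 0.63 ± 0.28 in 9 of 11 pairs (exact p = 0.0439, adjusted p = 0.0659), and Psmb9 against Psmb6 gave 0.46 ± 0.30 in 9 of 11 (exact p = 0.157, adjusted p = 0.189). In the 2 pairs scanned on 1 day the mean differences were 1.42 for Psmb8, 1.61 for Psmb10 and 0.72 for Psmb9, and in the 9 other pairs 0.78, 0.41 and 0.40. The 1.61 rests largely on rat 4, where Psmb7 differed by -1.74, compared with -0.42 in rat 9. The Psmb8 comparison lost its call under quantile normalization (0.77, adjusted p = 0.0605) and under normexp background correction (0.69, adjusted p = 0.0645).

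The same test set Cd74 and B2m against each other and against Ptprc. Cd74 and B2m differed in their changes by 0.02 ± 0.20 (exact p = 0.944, adjusted p = 0.944), with pairs between -1.63 and 0.64. Both changed less than Ptprc, Cd74 by -0.85 ± 0.16 (exact p = 0.00293, adjusted p = 0.0176) and B2m by -0.87 ± 0.28 (exact p = 0.0127, adjusted p = 0.0371), and Cd74 exceeded Ptprc in 1 of 11 pairs and B2m in 2. Under quantile normalization the B2m comparison lost its call (-0.69, adjusted p = 0.0605).

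**Figure D4:**
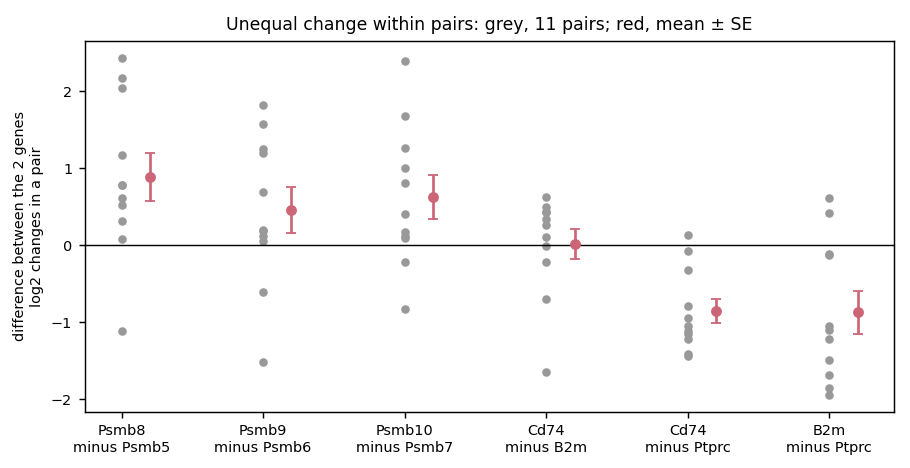
Difference between the log2 changes of 2 genes in the same pair, for 6 comparisons, with 11 pairs in grey and the mean ± SE in red. Psmb8 lies above Psmb5 in 10 of 11 pairs, and Cd74 lies below Ptprc in 10 of 11.

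Across the 11 pairs some members varied together. All values share the scaling of the same arrays, and 5 relations were computed, with 100000 permutations each. The differences of Psmb9 and Tap1, genes that start 457 bases apart on opposite strands of chromosome 20, had r = 0.94 (permutation p = 5e-05, adjusted p = 0.0002) and rho = 0.93 (permutation p = 0.00013, adjusted p = 0.000325). Without rats 22 and 24, the farthest from the median, r was 0.92. Psmb8 and Tap1 had r = 0.90 (permutation p = 0.00016, adjusted p = 0.000267) and rho = 0.86 (permutation p = 0.00139, adjusted p = 0.0021), and r was 0.85 without rats 11 and 25.

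Cd74 followed Ptprc. Over the 11 pairs r was 0.93 (permutation p = 8e-05, adjusted p = 0.0002) and rho 0.95 (permutation p = 5e-05, adjusted p = 0.00025), and without rats 17 and 22 r was 0.94. For B2m and Ptprc r was 0.81 (permutation p = 0.00256, adjusted p = 0.0032) and rho 0.85 (permutation p = 0.00168, adjusted p = 0.0021), falling to 0.59 without rats 17 and 22. Within the 9 pairs scanned on 2 days r was 0.96 for Psmb9 and Tap1, 0.91 for Psmb8 and Tap1, 0.93 for Ptprc and Cd74 and 0.81 for Ptprc and B2m. The pairs scanned on 1 day are too few for a value. The relation of Ciita and Cd74, r = 0.05 (permutation p = 0.878, adjusted p = 0.878) with rho = -0.06 (permutation p = 0.861, adjusted p = 0.861), rested on background signal of Ciita, and left without rats 9 and 25 it was -0.53.

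**Figure D5:**
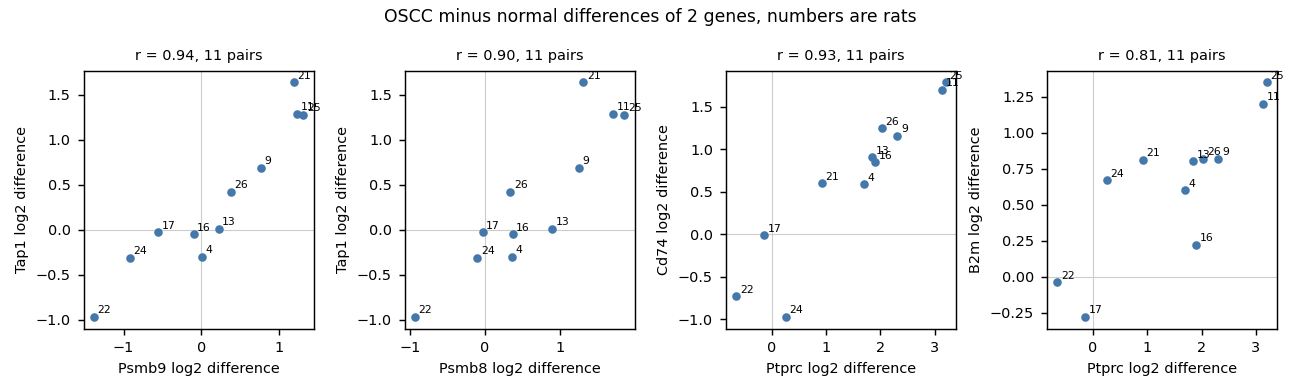
Log2 differences between OSCC and normal tongue of 2 genes in each of the 11 rats, numbered by rat, for the 4 relations whose genes were measured. Pearson's r is 0.94, 0.90, 0.93 and 0.81 from left to right, and rats 11 and 25 lie at the upper end and rat 22 at or near the lower end of each.

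The start regions of the members were searched for short motifs known from MHC promoters, in the 250 bases before each gene's start, on both strands, in RefSeq sequences of the GRCr8 assembly. Of the 53 members 42 had such a sequence. GAAANNGAAA, of the type bound by interferon response factors, was present in 6 of 9 processing genes, 3 of 25 class I genes and 0 of 8 class II genes, compared with 3.41% of all 33469 promoters. CCAAT, the NF-Y motif, was present in 8 of 8 class II, 16 of 25 class I and 3 of 9 processing genes, compared with 34.0% of all. GCAACNG, a core of the X box of class II promoters, was present in 5 of 8 class II, 2 of 25 class I and 1 of 9 processing genes, compared with 9.78% of all. A match describes letters in a window and not a site in use. B2m, Tap1 and RT1-Da are shown as a light chain, a transporter and a class II chain, on chr3:129549080-129549329 (plus strand), chr20:4668544-4668793 (minus strand) and chr20:4515165-4515414 (plus strand), with motifs on either strand in capitals.
B2m: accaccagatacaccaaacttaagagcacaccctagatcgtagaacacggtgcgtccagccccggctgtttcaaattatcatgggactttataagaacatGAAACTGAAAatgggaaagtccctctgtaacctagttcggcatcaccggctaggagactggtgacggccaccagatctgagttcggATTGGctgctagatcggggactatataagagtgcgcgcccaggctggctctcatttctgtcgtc
Tap1: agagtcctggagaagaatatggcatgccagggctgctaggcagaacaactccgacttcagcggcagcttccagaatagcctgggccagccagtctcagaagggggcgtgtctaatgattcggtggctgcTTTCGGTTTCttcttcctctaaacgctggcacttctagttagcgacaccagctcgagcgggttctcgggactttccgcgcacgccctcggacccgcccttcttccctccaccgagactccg
RT1-Da: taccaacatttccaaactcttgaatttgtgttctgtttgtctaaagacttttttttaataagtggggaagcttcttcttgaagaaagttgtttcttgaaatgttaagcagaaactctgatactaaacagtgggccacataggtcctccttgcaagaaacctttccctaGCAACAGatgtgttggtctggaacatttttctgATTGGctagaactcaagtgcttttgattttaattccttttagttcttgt
In B2m the interferon-type match lies 150 to 141 bases before the start and the CCAAT match, read on the opposite strand, 64 to 60 before it. In Tap1 the interferon-type match lies 121 to 112 bases before the start. In RT1-Da the X-box core lies 82 to 76 and the CCAAT match 49 to 45 bases before the start.

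Of 42 further genes of the pathway in 7 lists, 40 were on the array. By the adjusted p 19 were higher and 1 was lower, and 7 were higher by at least 2-fold, with a median difference of 0.20. Over all probes 16.2% were higher and 27.9% lower by the adjusted p, and 6.86% were higher by at least 2-fold. Their median was -0.24, and -0.08 over those well above background on every array. These shares stand beside the counts of each list below as well. Of the chaperones of peptide loading and of protein folding, taken as 1 list, 4 of 5 were higher. Canx (calnexin) was higher by 1.32 ± 0.14, Pdia3 (ERp57) by 1.06 ± 0.17, Calr (calreticulin) by 0.94 ± 0.18 and Hspa5 (BiP) by 0.83 ± 0.12 (adjusted p = 0.000143, 0.000734, 0.00178 and 0.000448). Tapbpl differed by -0.12 and was above background on 0 normal and 1 OSCC arrays. In the supply of cytosolic peptides 0 of 6 genes passed in either direction, Psme1 and Psme2, which code for the proteasome activator PA28, among them (-0.04 ± 0.10 and -0.05 ± 0.12).

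Of the endosomal enzymes of class II processing, 4 of 5 were higher. Lgmn (legumain) was higher by 1.78 ± 0.22 and Ctsh by 1.07 ± 0.18 (adjusted p = 0.000262 and 0.00108), and both were higher in 11 of 11 pairs. Among the promoter factors 3 of 7 were higher and 1 lower by the adjusted p, none at 2-fold. Of 9 genes of interferon gamma signalling 7 were higher, with Irf8 at 1.54 ± 0.44 and the feedback inhibitor Socs1 at 1.22 ± 0.35 past 2-fold (adjusted p = 0.0177 and 0.0176). Ifng itself was above background on no array. Among 5 genes related to class I, Procr, the endothelial protein C receptor, was higher by 1.48 ± 0.32 (adjusted p = 0.00377).

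The cells that carry class II were followed by markers. The summed signal of 5 macrophage markers, in units of the array's 75th percentile, ran from 2.70 to 5.83 in normal tongue and from 3.88 to 18.6 in OSCC. For the 3 B-cell markers on the array it ran from 0.0525 to 0.151 and from 0.0785 to 0.656, with Cd79b called higher by 2.45 ± 0.23 (adjusted p = 8e-05). For 5 dendritic cell markers it ran from 0.349 to 0.992 and from 0.333 to 1.48, with 1 of 5, Ccr7, called higher (1.71 ± 0.37, adjusted p = 0.00375). For the 8 T-cell markers it ran from 0.853 to 3.13 and from 1.45 to 6.85. For 4 natural killer cell markers it ran from 0.167 to 0.477 and from 0.162 to 1.30, with 0 called at 2-fold. By the adjusted p alone 1 of them, Ncr1, was higher (0.48 ± 0.15, adjusted p = 0.0258), above background on 0 normal and 1 OSCC arrays. For the 4 neutrophil markers the sum ran from 0.573 to 4.45 and from 1.49 to 394, with Mpo above background on no array. Its upper end was set by S100a8 and S100a9, whose highest log2 levels in OSCC were 7.21 and 7.93, compared with 1.94 for Csf3r. Each sum weighs its brightest probes most and is not a measure of cell number. The ranges of the tissues overlapped for each of these lists. The 4 muscle genes summed to 690 to 1490 in normal tongue and 38.4 to 1650 in OSCC, and the 4 squamous epithelial genes to 155 to 243 and 17.1 to 454, with 0 of 4 called. Of 3 endothelial markers 0 were called at 2-fold, but 2 were lower by the adjusted p alone. These were Pecam1 at -0.48 ± 0.12 and Vwf at -0.64 ± 0.18 (adjusted p = 0.0102 and 0.0186). All 4 of 4 serous gland genes were called higher. The part of these cell types in the member differences was not tested.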

How the data were processed

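Total RNA of each sample was hybridised by the authors to 1-colour Agilent arrays, and the deposited scanner files hold gProcessedSignal, a background-subtracted intensity from Feature Extraction 9.5.3.1, with probe positions on rn4. The authors' deposited value table holds linear ratios, which matched the scanner intensities divided by the array's 75th percentile within 2% for 99.6% of values compared, and was used as an alternative after taking log2.

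The intensities of 42877 spots per array were divided by the array's 75th percentile and taken to log2. Control spots and outlier flags (0.975% of values) were left out, and spots of 1 probe were averaged to 30367 probes. limma 3.58.1 in R 4.3.3 was fitted to all probes with rat as a block, which pairs the tissues of 1 animal, and p-values were adjusted by Benjamini-Hochberg over all probes. Same-numbered samples deviated from their group means with correlations of -0.21 to 0.24. Calls needed an adjusted p under 0.05, with or without a 2-fold change. On simulated data with a log2 change of 3, 198 of 200 changed probes were called right and 3 unchanged ones among 30299 simulated were called. The measured members differed by a median of 0.64 and at most 1.47, and the recovery of changes of that size was not simulated.

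Well above background means Agilent's flag, which 48.42% to 65.49% of probes carried on an array, and the number of arrays limits the precision. Tests within pairs used SciPy 1.17.1 in Python 3.11.15. The members and gene lists were chosen with earlier results of these data known, and the call rule without a fold minimum was added after the data were seen. Values are given for all processing genes found, for RT1 genes well above background on at least 6 of 11 arrays of either tissue, for called RT1 genes, and for genes of other lists that were called or compared; some further ones were chosen after their values were seen. RefSeq tables of GRCr8 supplied promoters and were used to name accessions. Replicates were separate rats.

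Alternatives were other scalings, normexp background correction with an offset of 50, the authors' table, a filter on dim probes, scan day, slide, the methods' t-test, all probes of a gene, fits without the rat block, and fits without single or 3 rats.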

Additional observations from a re-analysis of the deposited data

How the results depend on the processing

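Scan day limits every call here: with scan day in the model 0 members were higher and 0 lower by either rule, 0 in each class, and 9 of the 11 pairs differ in scan day. The 2 pairs scanned on 1 day give differences but no test. Without the replicate block 3 members were higher at 2-fold and 29 by the adjusted p, so that pairing by rat moved no count by over 1.5 times and, among the measured members, changed the call of Cd74 only. No relation with Nlrc5 was run, since no probe carried its name. The cause of the changes below was not tested.

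At 2-fold or more, members higher in OSCC numbered 5 under quantile normalization, 1 under scaling to the array median, 5 under scaling to the 75th percentile of detected probes and 8 without rats 21, 22 and 24. Class I members numbered 0 under the array median and 2 under the detected-probe percentile, and 2 without those rats. Class II members numbered 3 under quantile normalization, 2 under the detected-probe percentile and 4 without those rats, and 0 under the array median, under normexp and in the 9 pairs scanned on 2 days. Processing members numbered 2 without those rats. With single rats left out the counts ran from 1 to 7 for all members, from 0 to 3 for class I, from 0 to 3 for class II, stayed at 1 for processing, and 0 members were lower. Members lower at 2-fold numbered 0 under every setting tried.

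By the adjusted p alone, normexp left 12 members higher, 10 of class I, 0 of class II and 2 of processing. Class II members numbered 2 under the array median, 0 in the 9 pairs scanned on 2 days and 2 by the methods' t-test after Benjamini-Hochberg. With single rats left out 21 to 29 members were higher, 16 to 19 of class I, 1 to 5 of class II and 4 to 6 of processing. Members lower numbered 4 under the array median, 6 without rats 21, 22 and 24, 1 under quantile normalization, the authors' table, the dim-probe filter, the 2-day pairs and the adjusted t-test, and 0 under the detected-probe percentile, normexp and the slide as a random block. They ran from 0 to 7 with single rats left out. The median of all probes was -0.44 under the array median and -0.03 under quantile normalization.

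Under quantile normalization Psmb8 against Psmb5 (0.77) and B2m against Ptprc (-0.69) lost their calls. Under normexp Psmb8 against Psmb5 lost its call (0.69), Psmb10 against Psmb7 gained one (0.74), Cd74 against B2m turned to -0.03 and the r of Ciita and Cd74 to -0.58, while under quantile normalization that r was 0.55 (adjusted p = 0.0741), in each case with Ciita at background. Without rats 21, 22 and 24, Psmb9 against Psmb6 (0.74), Psmb10 against Psmb7 (0.97) and Cd74 against B2m (0.34) passed. The other comparisons and relations kept their direction and call under these settings.

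The members that changed direction were all uncalled. Psmb9 stood at -0.01 under the array median. RT1-N1 stood at -0.05 under quantile normalization and -0.08 under the array median, and RT1-N3 at 0.05 under normexp. RT1-N2 stood at 0.05 under the detected-probe percentile, 0.01 with scan day and 0.03 without the 3 rats, and from -0.12 to 0.02 with single rats left out. RT1-T18 stood at 0.13 under quantile normalization, 0.08 under the detected-probe percentile and 0.18 in the 2-day pairs, and from -0.12 to 0.1 with single rats left out.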
